A study of Mus musculus with 48 samples.

Results

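The genes described here encode 9 enzymes of the path from squalene synthase to cholesterol: Fdft1, Sqle, Lss, Cyp51, Nsdhl, Hsd17b7, Ebp, Sc5d and Dhcr7. They were picked by name from the 27281 rows of a table of normalized RNA abundance, with earlier results of these data known. RNA-Seq was carried out on murine striatal progenitor cells in 48 samples, 3 for each of 16 conditions, all kept for 24 h in medium without serum. Of the 13409 genes that carried a symbol and a mean of at least 1 on the log2 scale, all 9 enzymes were among those tested.

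STHdhQ111 cells carry a polyglutamine-expanded huntingtin on both alleles, and STHdhQ7 cells are the wild-type counterpart. Both are conditionally immortalized lines from C57BL/6 mice, and each genotype was represented by 1 line, so that genotype and line cannot be told apart. STHdhQ7 cells received vehicle only, which was DMSO. STHdhQ111 cells received vehicle or 1 of 14 compounds that had been protective in a viability assay. Cyproheptadine (10 µM), loxapine (10 µM) and pizotifen (5 µM) are the study's Group A, and diacylglycerol kinase inhibitor II (DKI, 10 µM) and meclizine (10 µM) its Group B. The other compounds were selisistat (10 µM), cysteamine (250 µM), sodium butyrate (1 mM), 4-deoxypyridoxine (DOP, 4 mM), trichostatin A (10 nM), fingolimod phosphate (250 nM), nortriptyline (1 nM), nicotinamide (0.5 nM) and haloperidol (0.5 nM). Nothing in the labels says whether replicates were separate cultures, so the p-values measure the spread between these samples, which may be technical. Samples were collected on 3 days at up to 3 times a day, and only selisistat and STHdhQ7 shared all 3 of their day and time slots with the STHdhQ111 vehicle.

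Cholesterol is built from acetyl units through mevalonate and farnesyl diphosphate to squalene, which is then oxidized, closed into the ring of lanosterol and trimmed in a series of demethylation, reduction and isomerization steps. When sterols in the endoplasmic reticulum run low, the transcription factor SREBP-2 is released from that membrane and raises the transcription of genes for synthesis and uptake, and NF-Y is a common partner at their promoters. Neural cells make their own cholesterol, since little of it crosses the blood-brain barrier. Loss of cholesterol synthesis in the striatum is a known feature of Huntington's disease models.

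All 9 enzymes were higher in STHdhQ7 than in STHdhQ111 cells, and all 9 rose in STHdhQ111 cells with each of the 3 Group A compounds. The 2 Group B compounds parted: with DKI 7 of the 9 fell, and with meclizine none of the 9 was called by limma at adjusted p under 0.05. DOP was the other compound with a broad fall, in 8 of the 9. A change counts as called when its Benjamini-Hochberg adjusted p, taken over all 13409 genes in limma, was under 0.05. Across all genes tested the median log2 difference from the vehicle lay between -0.0058 with DKI and 0.016 with sodium butyrate.

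**Figure D1:**
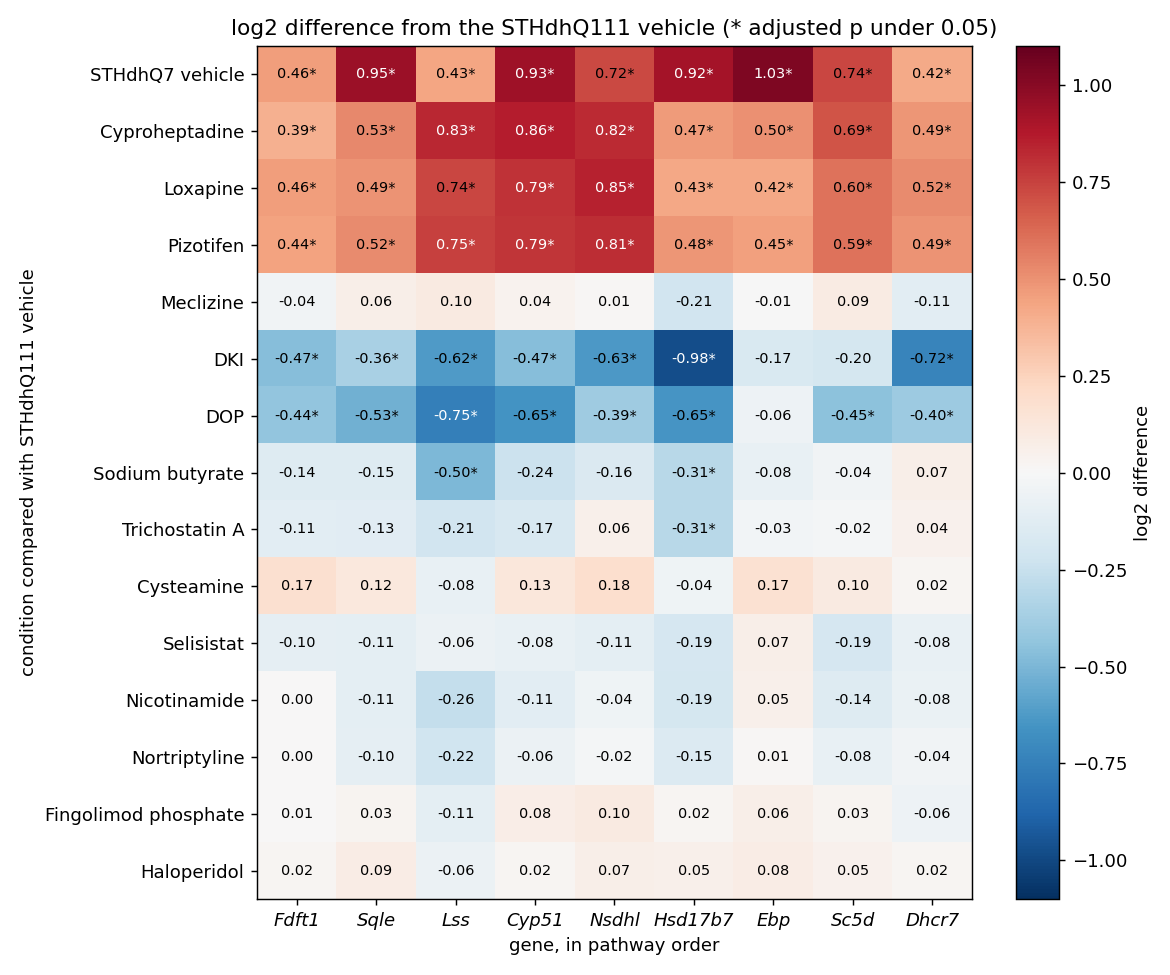
Log2 difference of each of the 9 enzymes (horizontal axis, in pathway order) from the STHdhQ111 vehicle for each of the 15 other conditions (vertical axis), with red for higher, blue for lower and an asterisk for adjusted p under 0.05 (limma, 3 samples per condition). STHdhQ7 and the Group A compounds are called in all 9 columns, and DKI and DOP are blue in 9 columns, of which 7 and 8 are called.

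The sequences just upstream of 3 of the genes are shown, picked by the size of their changes. Nsdhl had the largest separation between loxapine and DKI, and Ebp and Sc5d were the 2 enzymes that were not called with DKI. The direction was the same for all 3 genes, higher with each Group A compound and lower in the mean with DKI. Each is the 250 bases before the RefSeq transcription start in GRCm38.p6, read 5′ to 3′ along the gene, and the capitals mark CCAAT, the core letters of the NF-Y site, or its reverse complement ATTGG. Nsdhl lies at chrX:72918271-72918520 on the plus strand, Ebp at chrX:8193513-8193762 on the minus strand, and Sc5d at chr9:42264301-42264550 on the minus strand.
Nsdhl: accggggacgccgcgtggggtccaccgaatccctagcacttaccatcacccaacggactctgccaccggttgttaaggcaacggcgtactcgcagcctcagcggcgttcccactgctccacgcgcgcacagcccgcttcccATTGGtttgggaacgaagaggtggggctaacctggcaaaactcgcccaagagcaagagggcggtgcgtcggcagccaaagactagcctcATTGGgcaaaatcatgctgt
Ebp: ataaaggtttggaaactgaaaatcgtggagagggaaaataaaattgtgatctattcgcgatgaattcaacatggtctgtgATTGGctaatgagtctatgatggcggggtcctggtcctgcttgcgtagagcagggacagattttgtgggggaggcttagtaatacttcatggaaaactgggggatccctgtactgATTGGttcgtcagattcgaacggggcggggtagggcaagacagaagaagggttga
Sc5d: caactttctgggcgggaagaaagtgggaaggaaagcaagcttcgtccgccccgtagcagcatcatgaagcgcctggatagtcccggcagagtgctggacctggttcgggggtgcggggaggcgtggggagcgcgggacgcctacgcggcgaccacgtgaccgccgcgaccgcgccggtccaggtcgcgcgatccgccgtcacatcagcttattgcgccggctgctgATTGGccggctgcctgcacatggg

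Of the 9 enzymes, 7 had promoters in the RefSeq table, with 9 starts in all because Dhcr7 had 3, and Fdft1 and Sqle had no entry. CCAAT or its complement stood in at least 1 promoter of all 7 genes and in 7 of the 9 windows, against 33.8% of the 32851 promoters in the table. Nsdhl and Ebp held 2 such boxes each, at 109 and 20 bases and at 170 and 55 bases before the start, and Sc5d held 1 at 24 bases. Hsd17b7 held 3, at 165, 73 and 12 bases before its start. The letters GGGCGG, the GC box, stood in 8 of the 9 windows, against 32.7% of all promoters. The E-box letters CACGTG stood in 3 of the 9 windows, those of Hsd17b7, Sc5d and 1 start of Dhcr7, against 6.02% of all. TCACNCCAC, a common spelling of the sterol regulatory element, stood in none of the 9 windows and in 1.05% of all. Both strands were searched, the E-box reads the same on both, and no match of one motif shared bases with a match of another. A window without a match says only that these letters are not in it. The windows of Ebp, the enzyme called lower with no compound, and of Nsdhl, called lower with 2, held the same numbers of each motif.

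Fdft1 (ENSMUSG00000021273, squalene synthase) joins 2 farnesyl diphosphates into squalene and commits the pathway to sterols. It spans chr14:63145150-63179578 on the minus strand of GRCm38. Its normalized log2 abundance in the 3 vehicle samples was 10.92, 11.04 and 11.10. In the Group A samples it was 11.44, 11.35 and 11.45 with cyproheptadine, 11.52, 11.48 and 11.44 with loxapine and 11.55, 11.31 and 11.52 with pizotifen, and every one of these 9 values lay above the vehicle. DKI gave 10.65, 10.57 and 10.45 and DOP 10.64, 10.54 and 10.57, and the 6 samples lay below every vehicle sample. In STHdhQ7 cells Fdft1 was 11.49, 11.48 and 11.47, inside the range of the Group A samples. Its exons overlap those of Ctsb, which runs on the opposite strand and encodes the lysosomal protease cathepsin B. Ctsb was higher by 0.26 with DKI (adjusted p = 5.09e-05), where Fdft1 fell, and by 0.18 with cyproheptadine (adjusted p = 0.00375). Its largest rises were 0.36 with sodium butyrate and 0.35 with meclizine, where Fdft1 was not called. Calls were also made for Ctsb with trichostatin A, at 0.16, and loxapine, at 0.15. The library kit kept strand, and whether the counting used it was not given in the sources used here.

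Sqle (ENSMUSG00000022351, squalene epoxidase) adds the oxygen that the ring closure needs and is a slow step of the pathway. It spans chr15:59315077-59331192 on the plus strand. Its log2 abundance was 11.55, 11.65 and 11.64 with vehicle, 12.18, 12.17 and 12.10 with cyproheptadine, 12.17, 12.06 and 12.09 with loxapine and 12.24, 11.98 and 12.17 with pizotifen. The STHdhQ7 samples at 12.65, 12.46 and 12.57 lay above all of the Group A samples. DKI gave 11.39, 11.17 and 11.22 and DOP 11.11, 11.04 and 11.10. DOP was the lowest of the 16 conditions for Sqle, and its 3 samples did not overlap those of DKI, although the doses differed and no test was made between them.

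Lss (ENSMUSG00000033105, lanosterol synthase) folds squalene epoxide into lanosterol, the first sterol. It spans chr10:76531588-76557138 on the plus strand, and its exons overlap those of 4930483K19Rik on the opposite strand, which was in the table below the minimum for testing. With vehicle the log2 abundance was 11.59, 11.73 and 11.65, with cyproheptadine 12.49, 12.47 and 12.48, with loxapine 12.32, 12.42 and 12.43, and with pizotifen 12.58, 12.16 and 12.48. STHdhQ7 cells gave 12.36, 11.86 and 12.04, and all 3 samples lay below every cyproheptadine sample, a difference that was not tested. The lowest values were 11.01, 10.77 and 10.92 with DOP and 11.17, 10.92 and 11.003 with DKI, and sodium butyrate followed at 11.20, 11.08 and 11.18. DKI overlapped both DOP and sodium butyrate, and all 9 of these samples lay below the vehicle.

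Cyp51 (ENSMUSG00000001467, lanosterol 14-alpha-demethylase) starts the trimming of lanosterol and is the target of azole antifungals in yeast. It spans chr5:4081145-4104746 on the minus strand and shares exonic bases with Akap9, a gene of the opposite strand for a centrosomal anchoring protein. Vehicle samples stood at 12.16, 12.24 and 12.23, and cyproheptadine at 13.18, 13.06 and 12.98, loxapine at 13.10, 12.92 and 12.99 and pizotifen at 13.10, 12.84 and 13.05. In STHdhQ7 cells it was 13.42, 12.97 and 13.03, and the 4 conditions overlapped. With DKI it was 11.94, 11.69 and 11.60 and with DOP 11.57, 11.46 and 11.63, below the vehicle in all 6 samples. Akap9 did not pass the test with cyproheptadine (-0.16, adjusted p = 0.136), with DKI (-0.13, adjusted p = 0.206) or with DOP (-0.11, adjusted p = 0.386). It was called only with sodium butyrate, at -0.51 (adjusted p = 5.84e-06), where Cyp51 stood at -0.24 and was not called.

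Nsdhl (ENSMUSG00000031349) removes the carbon at position 4 of the sterol ring after its oxidation by Msmo1. It spans chrX:72918557-72958514 on the plus strand. Its log2 abundance was 9.60, 9.67 and 9.71 with vehicle, 10.53, 10.49 and 10.43 with cyproheptadine, 10.46, 10.48 and 10.58 with loxapine and 10.65, 10.27 and 10.49 with pizotifen. STHdhQ7 samples, at 10.56, 10.22 and 10.36, overlapped the Group A samples. DKI, at 9.10, 9.04 and 8.95, lay below DOP, at 9.30, 9.19 and 9.31, and both lay below every sample of the other 14 conditions.

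Hsd17b7 (ENSMUSG00000026675) reduces the ketone that this demethylation leaves, and also acts on estrone. It spans chr1:169949535-169969241 on the minus strand. The vehicle samples were close together at 9.84, 9.86 and 9.83. Cyproheptadine gave 10.44, 10.28 and 10.23, loxapine 10.29, 10.25 and 10.29, and pizotifen 10.45, 10.19 and 10.35, while the STHdhQ7 samples at 10.78, 10.78 and 10.73 lay above all of them. DKI gave 9.004, 8.82 and 8.79 and DOP 9.16, 9.15 and 9.27, and no sample of one overlapped the other. This gene had the widest spread of condition means among the 9, at 1.89 from STHdhQ7 to DKI, and it was the only one of the 9 called with 4 compounds in the downward direction.

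Ebp (ENSMUSG00000031168, the emopamil binding protein) moves a double bond of the ring and is also a binding site of many cationic drugs. It spans chrX:8185329-8193512 on the minus strand. Its log2 abundance was 9.18, 9.05 and 9.25 with vehicle, 9.66, 9.63 and 9.69 with cyproheptadine, 9.55, 9.60 and 9.60 with loxapine and 9.61, 9.53 and 9.69 with pizotifen. In STHdhQ7 cells it was 10.18, 10.15 and 10.22, above every other sample. DKI gave 9.08, 8.99 and 8.90 and DOP 9.18, 9.02 and 9.11, and both overlapped the vehicle. Ebp was the only one of the 9 enzymes called lower with no compound.

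Sc5d (ENSMUSG00000032018, sterol-C5-desaturase) makes 7-dehydrocholesterol, the precursor shared by cholesterol and vitamin D. It spans chr9:42251595-42264256 on the minus strand. With vehicle it was 10.04, 10.17 and 10.06, with cyproheptadine 10.86, 10.83 and 10.67, with loxapine 10.68, 10.67 and 10.72 and with pizotifen 10.74, 10.57 and 10.74. STHdhQ7 cells gave 10.95, 10.80 and 10.74. With DOP it was 9.66, 9.61 and 9.65, below all vehicle samples, whereas DKI gave 10.06, 9.84 and 9.80 and its highest sample lay within the vehicle range. A single selisistat sample stood low at 9.63 beside 10.01 and 10.07 in the other replicates.

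Dhcr7 (ENSMUSG00000058454, 7-dehydrocholesterol reductase) performs the last step of one arm and is mutated in Smith-Lemli-Opitz syndrome. It spans chr7:143823145-143848410 on the plus strand. The vehicle samples were 9.13, 9.14 and 9.15. Cyproheptadine gave 9.58, 9.70 and 9.62, loxapine 9.63, 9.67 and 9.69, pizotifen 9.69, 9.51 and 9.70 and STHdhQ7 9.71, 9.37 and 9.59, all above the vehicle. DKI, at 8.48, 8.42 and 8.37, lay below every other sample, and DOP, at 8.89, 8.58 and 8.76, overlapped meclizine. Sodium butyrate gave 9.20, 9.20 and 9.22, slightly above the vehicle, the direction opposite to that of Lss with the same compound.

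**Figure D2:**
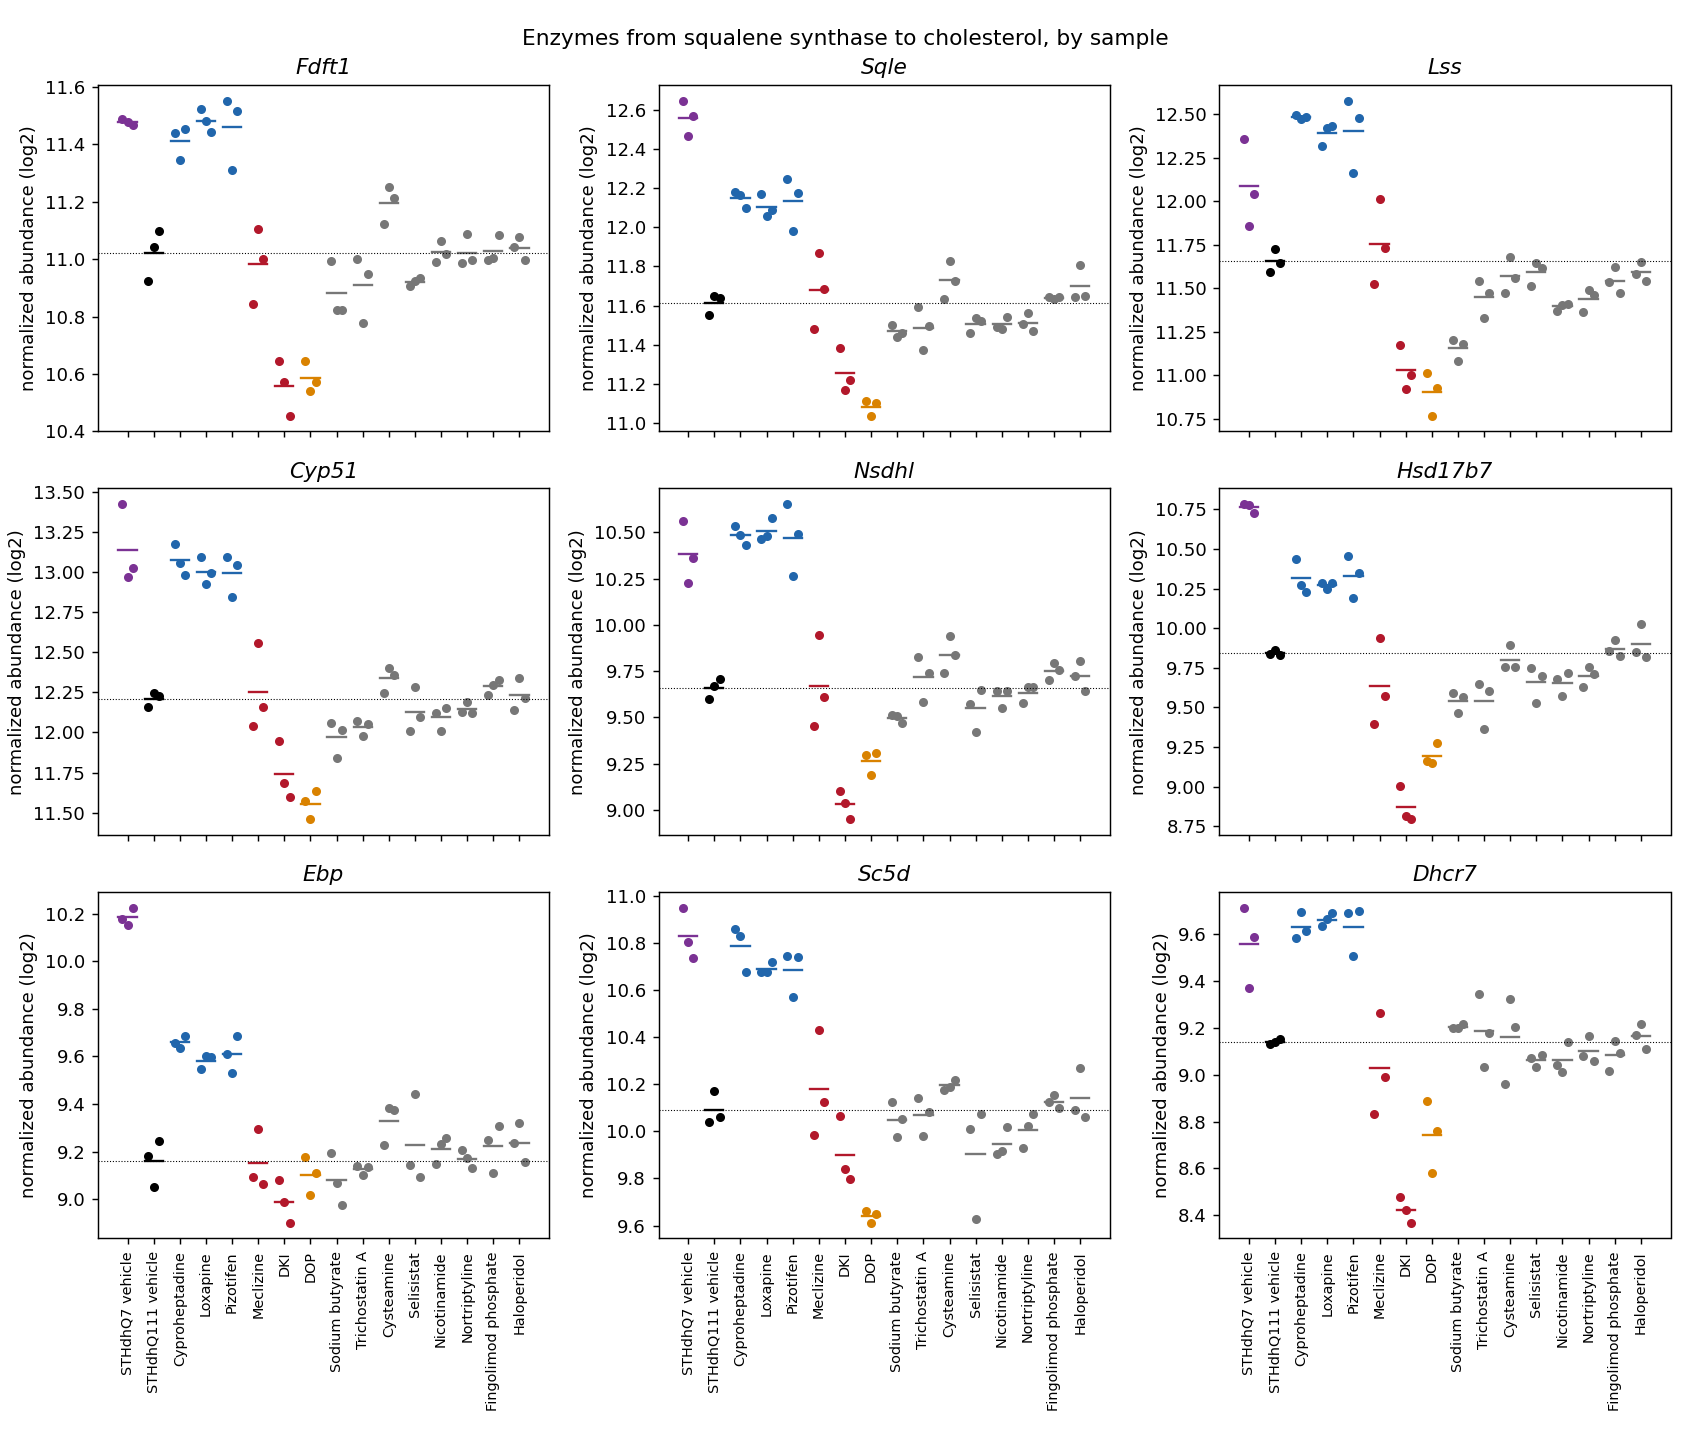
Normalized log2 abundance (vertical axis) of each of the 9 enzymes in each of the 48 samples, by condition, with 1 point per sample and a bar at the mean of 3. STHdhQ7 is purple, the STHdhQ111 vehicle black with a dotted line at its mean, Group A blue, Group B red, DOP orange and the other compounds grey, and the purple and blue points are above the dotted line in every panel.

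In all 9 genes the 4 conditions with the highest means were STHdhQ7, cyproheptadine, loxapine and pizotifen, which was so in 2.36% of all genes tested. In 8 of the 9 their 12 samples all lay above the 36 others, against 0.343% of all genes, and the exception was Lss, where a meclizine sample at 12.01 passed a STHdhQ7 sample at 11.86. DKI and DOP had the lowest 2 means in 8 of the 9 genes, against 1.28% of all, and for Ebp the lowest 2 were DKI and sodium butyrate. The conditions at both ends were picked from the order in these same 9 genes. A small share of all genes is then to be had for most such sets, so these shares are descriptions and not tests. Between these ends, most neighbouring conditions overlapped: of the 15 steps between conditions ranked next to each other, samples were separate at 1 step for Lss and Cyp51 and at 5 for Hsd17b7. The values are not per length, so levels are compared between samples of 1 gene and not between genes.

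STHdhQ7 was compared with STHdhQ111, both with vehicle, to set the level of the wild-type line beside that of the mutant. All 9 enzymes were called higher, against 29.2% of the 13409 genes, and in all 9 the samples did not overlap, against 29.9%. The median difference was 0.74 on the log2 scale. Ebp showed the largest difference, at 1.03 ± 0.072 (SE, 3 samples a group), a 2.04-fold higher abundance (adjusted p = 3.04e-15). Sqle at 0.95, Cyp51 at 0.93 and Hsd17b7 at 0.92 followed. The smallest were Lss at 0.43 (adjusted p = 3.00e-04), Dhcr7 at 0.42 (adjusted p = 9.54e-05) and Fdft1 at 0.46 (adjusted p = 1.02e-07). In either direction, 55.8% of all genes were called between the lines.

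The compounds of Group A were compared with the STHdhQ111 vehicle, and the 3 comparisons use the same vehicle samples. With cyproheptadine, 9 of 9 enzymes rose, against 17.5% of all genes called higher. The rises ran from 0.39 ± 0.064 (SE) for Fdft1 to 0.86 ± 0.10 for Cyp51, which is a 1.82-fold rise (adjusted p = 3.96e-08). With loxapine 9 of 9 rose, against 10.1% of all genes, from 0.42 for Ebp (adjusted p = 5.14e-05) to 0.85 for Nsdhl (adjusted p = 3.24e-08). With pizotifen 9 of 9 rose, against 8.86%, from 0.44 for Fdft1 (adjusted p = 6.06e-06) to 0.81 for Nsdhl (adjusted p = 1.23e-07). The samples of all 3 compounds lay above the vehicle in every gene, against 22.4%, 20.9% and 17.4% of all genes. Lss, Cyp51 and Nsdhl had the 3 largest rises with each compound, and they follow each other in the order of the 9.

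The order of the enzymes by size was not the same for the compounds and for the lines. Lss was 0.83 higher with cyproheptadine, 0.74 with loxapine and 0.75 with pizotifen, and 0.43 higher in STHdhQ7. Ebp was 0.50, 0.42 and 0.45 higher with the 3 compounds and 1.03 higher in STHdhQ7, and Hsd17b7 was 0.47, 0.43 and 0.48 against 0.92. All of these differences are from the same vehicle samples, and the compounds were not tested against STHdhQ7.

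With DKI, 7 of 9 enzymes fell, against 21.9% of all genes called lower, and 7 had samples wholly below the vehicle, against 26.7%. Hsd17b7 fell by 0.98 ± 0.089 (SE), to 0.508 times the vehicle level (adjusted p = 2.12e-11). Dhcr7 fell by 0.72 (adjusted p = 1.81e-08), Nsdhl by 0.63 (adjusted p = 3.34e-07) and Lss by 0.62 (adjusted p = 2.96e-06). Fdft1 and Cyp51 fell by 0.47 and Sqle by 0.36. Ebp was at -0.17 (95% interval -0.32 to -0.023, adjusted p = 0.0563) and Sc5d at -0.20 (-0.38 to -0.014, adjusted p = 0.0772), and both had an unadjusted p under 0.05. The DKI sample labelled replicate 1 was the highest of the 3 in all 9 genes, against 36.9% of all genes, and without it all 9 were called, with Ebp at -0.22 and Sc5d at -0.27.

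Meclizine, the other Group B compound, left no enzyme called by limma, against 26.8% of all genes called in either direction, and 1 of the 9 had an unadjusted p under 0.05, against 36.4% of all genes. That was Hsd17b7, at -0.21 (95% interval -0.39 to -0.033, adjusted p = 0.0729). The other differences lay between -0.11 for Dhcr7 and 0.10 for Lss, and the intervals of all 9 reached from -0.39 to 0.30, which leaves room for any change in that range. The 3 meclizine samples lay far apart. Sqle was 11.48, 11.87 and 11.69, Cyp51 12.04, 12.56 and 12.16, and Hsd17b7 9.40, 9.94 and 9.57. Replicate 2 was the highest in all 9 genes, against 33.6% of all genes, and replicate 1 the lowest in 8, against 30.8%. The mean of the 9 enzymes had an SD of 0.213 over the 3 meclizine samples, and between 0.015 and 0.133 in the other conditions. Without replicate 2, Hsd17b7 stood at -0.37 (adjusted p = 6.28e-04) and Dhcr7 at -0.24 (adjusted p = 0.0424), and both were called.

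**Figure D3:**
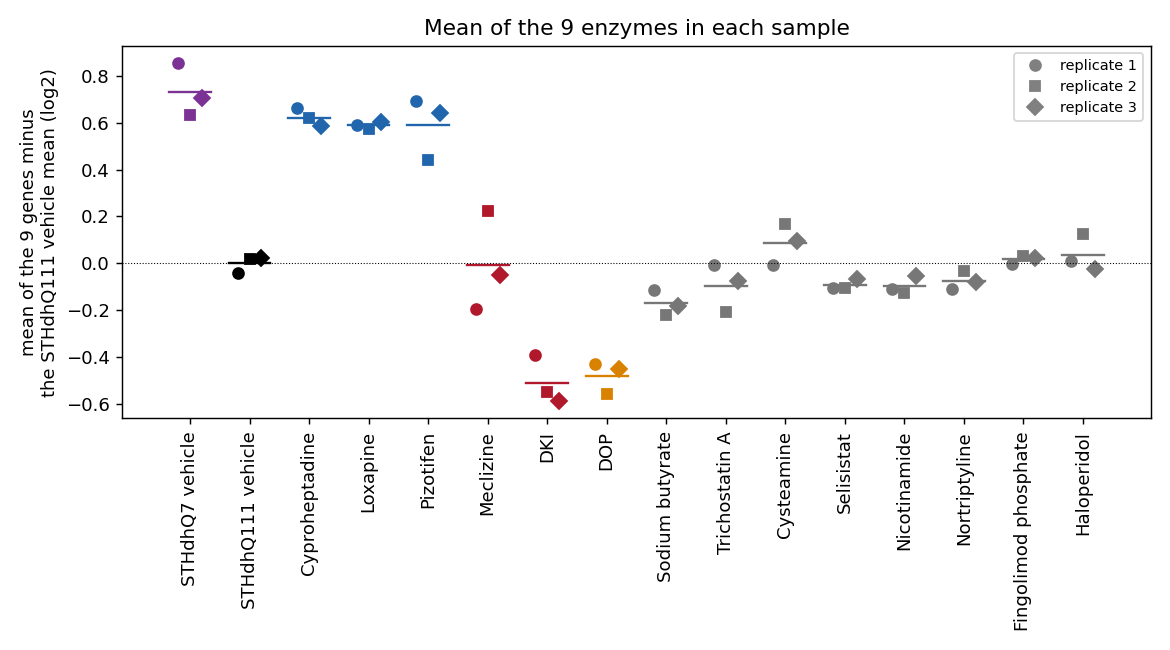
Mean of the 9 enzymes in each sample minus the mean of the 3 STHdhQ111 vehicle samples (vertical axis, log2), by condition, with the marker shape giving the replicate, a bar at the mean of 3 and colours as in the plot of values by sample. Meclizine spreads from below the vehicle to above it (SD 0.213), while the loxapine samples lie together (SD 0.015).

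Samples of 1 slot stood at opposite ends of their conditions. Pizotifen replicate 2 was the lowest of its condition in all 9 genes, against 32.6% of all genes, and it was collected on the day and at the time of the meclizine sample that was highest. From that slot too came a trichostatin A sample that was the lowest of 3 in all 9 (37.6% of all genes) and a haloperidol sample that was the highest of 3 in all 9 (32.4%). The remaining sample of that slot, fingolimod phosphate replicate 2, was mixed. It was the highest of 3 in 5 of the 9 (30.3%) and the lowest in 2 (30.9%). At other slots, DOP replicate 2 was the lowest in all 9 (37%) and cysteamine replicate 1 the lowest in all 9 (31.9%). The part of cell number, culture or library in these shared shifts was not tested. In bulk RNA, fewer cells of a kind and less RNA per cell cannot be told apart.

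DOP, an antagonist of vitamin B6, gave 8 lower enzymes of 9, against 11.2% of all genes called lower, and 8 had samples wholly below the vehicle, against 19%. Lss fell by 0.75 ± 0.099 (SE, adjusted p = 2.47e-06), and Cyp51 and Hsd17b7 by 0.65. Sqle fell by 0.53, Sc5d by 0.45, Fdft1 by 0.44, Dhcr7 by 0.40 and Nsdhl by 0.39 (adjusted p = 0.00153). Ebp stood at -0.06 with a 95% interval of -0.20 to 0.089 (adjusted p = 0.637). The falls from the vehicle with 4 mM DOP and 10 µM DKI differed in order, with Hsd17b7 first for DKI and Lss first for DOP. The doses do not allow a comparison. The order for DOP also depended on the control. Against nicotinamide and nortriptyline, which shared its collection slots, Cyp51 was lowest at -0.56 and Lss stood at -0.52.

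Counts of called enzymes with the deacetylase inhibitors sodium butyrate and trichostatin A were close to the shares of all genes. With sodium butyrate 2 of 9 fell, against 17.8% of all genes called lower: Lss by 0.50 (adjusted p = 1.31e-04) and Hsd17b7 by 0.31 (adjusted p = 0.0056). With trichostatin A only Hsd17b7 was called, lower by 0.31 (adjusted p = 0.0158), against 6.68% of all genes called lower. Hsd17b7 samples with trichostatin A were 9.65, 9.36 and 9.60, all below the vehicle, and without the sample at 9.36 it stood at -0.22 (adjusted p = 0.142). Samples lay wholly below the vehicle in 5 of the 9 genes with sodium butyrate, against 23% of all genes, and in 3 with trichostatin A, against 16%. Dhcr7 with sodium butyrate, at 0.07 (adjusted p = 0.591), was the 1 member of the 9 with all its samples above the vehicle, against 25.8% of all genes.

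No enzyme was called by limma with the remaining 6 compounds. With cysteamine, for which 7.83% of all genes were called, 3 of 9 had an unadjusted p under 0.05, against 23% of all genes, and the differences lay between -0.08 for Lss and 0.18 for Nsdhl. With selisistat (0.515% called) 2 of 9 did, against 17.2% of all genes, between -0.19 for Sc5d and 0.07 for Ebp. Nicotinamide (10.4% called) gave 2, against 26.4%, between -0.26 for Lss and 0.05 for Ebp. Nortriptyline (3.83% called) gave 1, against 18.5%, between -0.22 for Lss and 0.01 for Ebp. Fingolimod phosphate (0.0597% called) gave 0, against 10.5%, between -0.11 for Lss and 0.10 for Nsdhl. Haloperidol (0% called) gave 0 as well, against 2.96%, between -0.06 for Lss and 0.09 for Sqle. Samples lay wholly above the vehicle in 4 of 9 genes with cysteamine, against 13.9% of all genes. They lay wholly below it in 3 with selisistat (8.27%), 5 with nicotinamide (17.3%) and 2 with nortriptyline (13.8%). The 95% intervals reached from -0.46 to 0.36 over these 6 compounds.

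Because most compounds were collected at other slots than the vehicle, the nanomolar compounds of the same slots served as a second control. Cyproheptadine and DKI were not compared in this way, since no nanomolar compound shared all of their slots. Neither had a sample from collection day 1. Against haloperidol and fingolimod phosphate, 9 of 9 enzymes were higher with pizotifen (9.34% of all genes called higher), by 0.38 for Ebp to 0.84 for Lss. Against the same control 1 of 9 was lower with meclizine (14% called lower), which was Hsd17b7 at -0.25 (adjusted p = 0.012), and 2 were lower with trichostatin A (6.32%), Hsd17b7 at -0.34 and Sqle at -0.18. Against nicotinamide and nortriptyline, 9 of 9 were higher with loxapine (11.9% called higher), by 0.39 for Ebp to 0.97 for Lss. Nsdhl, which rose most against the vehicle with loxapine and pizotifen, was thus not first against these controls. With DOP 8 of 9 were lower than nicotinamide and nortriptyline (5.08% called lower), with a median of -0.42 over the 9. With cysteamine limma called 0 of 9 (0.119% of all genes in either direction), and the differences lay between 0.080 for Dhcr7 and 0.22 for Sqle. With sodium butyrate 2 were lower (13.8%), Lss at -0.26 and Fdft1. Hsd17b7 with sodium butyrate, at -0.14 (adjusted p = 0.171), was not called against this control, and Fdft1, at -0.14 (adjusted p = 0.046), was. These controls were themselves treated, at nanomolar doses.

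The 4 compounds of Groups A and B that were given at 10 µM for 24 h were compared directly, in 6 pairs, with p-values adjusted over all genes and all 6 pairs. Cyproheptadine and meclizine are both H1 antihistamines, the first a tricycle with a piperidine and the second a diphenylmethyl piperazine. Loxapine, an antipsychotic, is a tricycle with a piperazine. Cyproheptadine stood above meclizine in all 9 enzymes (10.1% of all genes called higher), by 0.42 ± 0.064 (SE) for Fdft1 (adjusted p = 4.43e-06) to 0.82 ± 0.10 for Cyp51 (adjusted p = 1.80e-07). Loxapine stood above meclizine in all 9 (11.4% called higher), by 0.43 for Sqle to 0.84 for Nsdhl. No sample of either overlapped meclizine in any of the 9 genes, against 16.5% and 21.5% of all genes. The meclizine replicate that stood high narrowed these gaps: without it, cyproheptadine stood 0.99 above meclizine for Cyp51.

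Cyproheptadine and DKI were collected at the same 3 slots. All 9 enzymes were higher with cyproheptadine (13.1% of all genes called higher), with a median of 1.21. No sample overlapped in any of the 9 genes for cyproheptadine against DKI (18.5% of all genes) or loxapine against DKI (25.3%), and meclizine against DKI was separate in 7 (12.9%). Between cyproheptadine and DKI, Nsdhl differed by 1.45 ± 0.088 (SE, adjusted p = 5.21e-15), Lss by 1.45 and Hsd17b7 by 1.44, and Ebp by 0.67 (adjusted p = 6.57e-09), the smallest of the 9. Loxapine stood above DKI in all 9 as well (16.7%), from 0.59 for Ebp to 1.48 for Nsdhl. Meclizine stood above DKI in 8 of 9 (5.51%), from 0.28 for Sc5d (adjusted p = 0.0196) to 0.77 for Hsd17b7 (adjusted p = 2.83e-08). Ebp differed by 0.16 (95% interval 0.016 to 0.31, adjusted p = 0.11) and was not called. The Sc5d call was lost without meclizine replicate 2 (0.14, adjusted p = 0.278), without DKI replicate 2 (0.26, adjusted p = 0.0707) and without DKI replicate 3 (0.23, adjusted p = 0.106). It was also lost when only the samples compared were fitted (0.36, adjusted p = 0.0784).

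Between cyproheptadine and loxapine at 10 µM, none of the 9 was called by limma (13.4% of all genes were, in either direction), and 0 of 9 had an unadjusted p under 0.05, against 24.1% of all genes. The differences lay between -0.07 for Fdft1 and 0.09 for Sc5d, and the 95% intervals of all 9 reached from -0.21 to 0.29. For Lss and Ebp every cyproheptadine sample lay above every loxapine sample, against 16.6% of all genes. Cyproheptadine and pizotifen, both tricycles with a piperidine, were given at 10 µM and 5 µM, so their values stand side by side without a test. The rises from the vehicle were 0.86 and 0.79 for Cyp51, 0.82 and 0.81 for Nsdhl, 0.69 and 0.59 for Sc5d, 0.53 and 0.52 for Sqle and 0.39 and 0.44 for Fdft1.

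**Figure D4:**
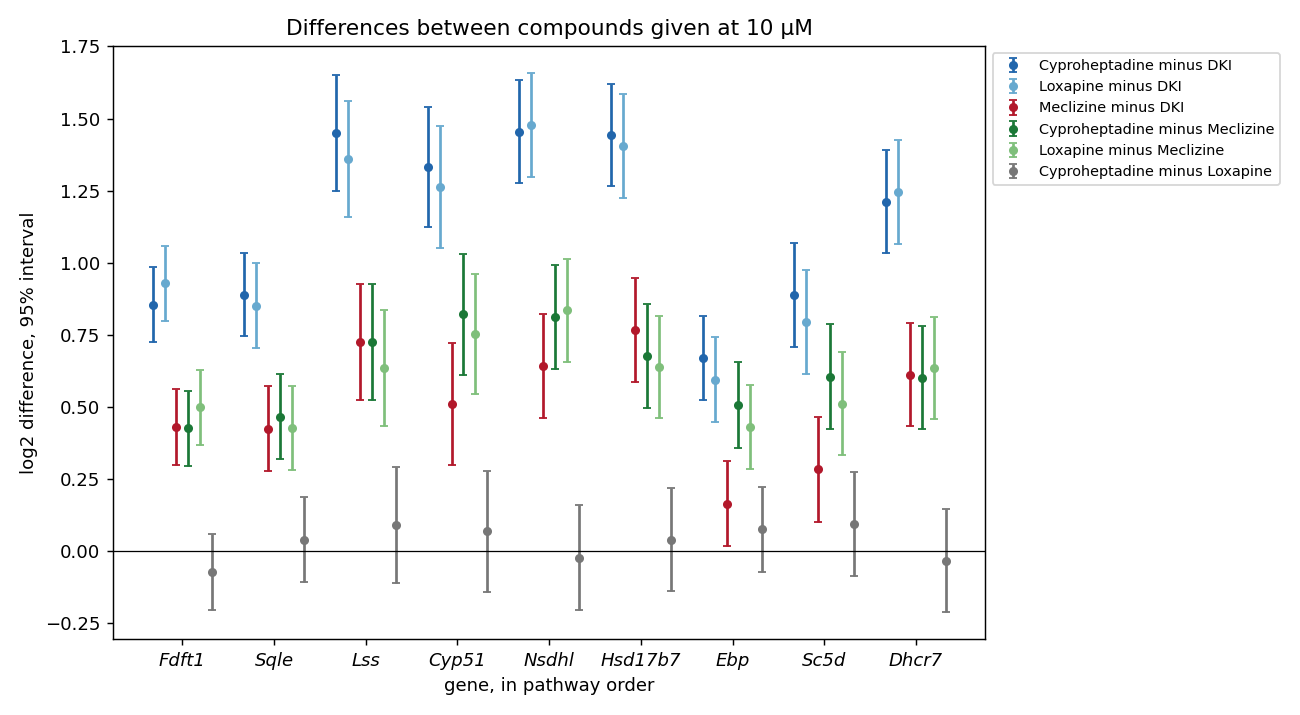
Log2 differences between pairs of compounds given at 10 µM (vertical axis, points with 95% intervals from limma, 3 samples each) for the 9 enzymes in pathway order (horizontal axis). The differences between cyproheptadine and loxapine (grey) have intervals that include 0 in all 9 genes, and cyproheptadine and loxapine minus DKI (blue) reach 1.45 and 1.48 for Nsdhl.

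The 9 enzymes followed each other across the conditions. Over the 16 condition means, Pearson's r for the 36 pairs of enzymes lay between 0.768, for Ebp and Lss, and 0.980, with a median of 0.929. Without STHdhQ7 it lay between 0.863 and 0.990, with a median of 0.947. The points share the library of each sample, so these are descriptions. Against the mean of all 9, Cyp51 was the closest (0.993) and Ebp the least close (0.902). Of the 9937 genes with a mean of at least 6, those outside the members whose condition means were most like that mean included Msmo1 (0.989), the demethylase that works with Nsdhl, Aacs (0.980), which activates acetoacetate, Acly (0.972), which makes cytosolic acetyl-CoA, and Scd2 (0.969), a fatty acid desaturase.

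The remaining genes of cholesterol handling were followed in lists of 25 genes in all: 8 of the mevalonate steps, 4 other enzymes after squalene, 7 of SREBP-2 control and uptake, and 6 targets of LXR, the receptor that oxysterols switch on. Of the 25, 17 rose and 1 fell with each Group A compound. In STHdhQ7, 15 were higher and 4 lower. With DKI 1 rose and 19 fell, with DOP 14 fell, and with meclizine 5 fell. Sodium butyrate raised 3 and lowered 7, and trichostatin A, nicotinamide and nortriptyline lowered 2 each. No gene of the 25 was called with cysteamine, selisistat, fingolimod phosphate or haloperidol. Of all genes, 26.6% were called lower in STHdhQ7, 18.2% with cyproheptadine, 11.8% with loxapine, 9.07% with pizotifen, 13.6% with meclizine, 7.59% with nicotinamide and 3.08% with nortriptyline, and 20.4% were called higher with DKI and 19.6% with sodium butyrate, and the other shares are given above.

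The 8 mevalonate genes rose with cyproheptadine, loxapine and pizotifen and fell with DKI, 8 of 8 in each, and 7 fell with DOP. Mvd, the decarboxylase that makes isopentenyl diphosphate, rose most, by 0.92, 0.86 and 0.81 with the Group A compounds, and Hmgcs1, which makes HMG-CoA, fell most with DKI, by 1.08 (adjusted p = 1.15e-13). The median of these 8 with DKI was -0.74, and that of the 9 enzymes after farnesyl diphosphate was -0.47. In STHdhQ7, by contrast, the median of the 8 was 0.43 and that of the 9 was 0.74. Idi1, an isomerase of the mevalonate steps, was at -0.08 in STHdhQ7 (adjusted p = 0.443). With meclizine 2 of the 8 fell, and the largest fall was that of Mvk, the mevalonate kinase, at -0.24 (adjusted p = 0.0165).

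The 4 other enzymes after squalene all rose with each Group A compound and all were higher in STHdhQ7. Msmo1 rose most with the compounds, by 0.81, 0.76 and 0.77, and Tm7sf2, a sterol reductase, differed most between the lines, by 1.48. With DKI 3 of the 4 fell, and Lbr, at -0.08 (adjusted p = 0.373), did not pass the test. With DOP 3 fell, and with meclizine 0 of 4 were called.

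In the SREBP-2 and uptake list, 4 of 7 rose with each Group A compound, led by Insig1, which holds SREBP-2 back in the endoplasmic reticulum, at 0.87, 0.67 and 0.71. With DKI 5 of 7 fell, and Scap, the escort of SREBP-2, was higher by 0.16 (adjusted p = 0.0187). DOP lowered 4 of the 7, of which Insig1 fell most, by 0.77. Meclizine called 0 of the 7.

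The LXR targets were mixed. In each Group A comparison 1 of 6 rose, which was Lpcat3, a lysophospholipid acyltransferase, by 0.29, 0.34 and 0.36. The 1 that fell in each was Mylip, a ubiquitin ligase, by 0.52, 0.45 and 0.34. In STHdhQ7 3 of the 6 were lower, led by Abcg1, another sterol exporter, at -0.85. With DKI 3 of the 6 fell, with meclizine 3, and with DOP 0 were called. Abca1, the sterol exporter, was the largest fall with meclizine, by 0.63 (adjusted p = 0.00747), while none of the 9 enzymes was called there, and stood at 0.45 with DOP (adjusted p = 0.0688).

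**Figure D5:**
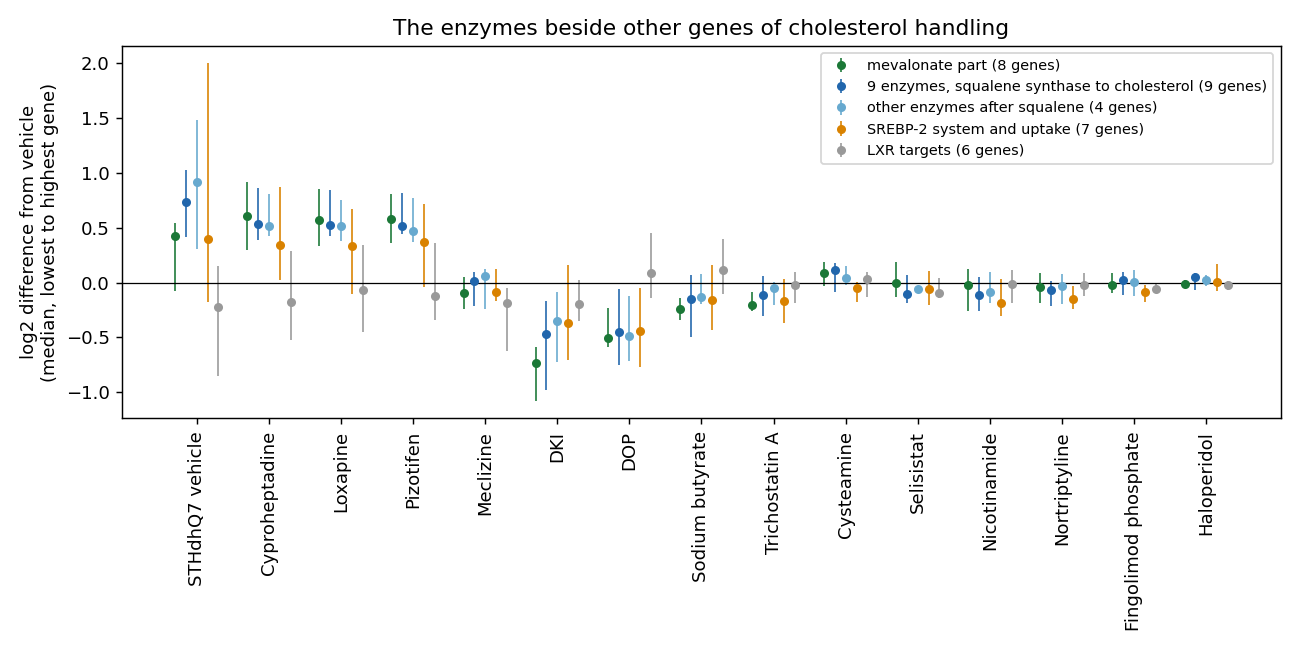
Log2 difference from the STHdhQ111 vehicle (vertical axis) for the 9 enzymes and the other lists of cholesterol genes, by condition, with a point at the list's median and a bar from its lowest to its highest gene. With DKI the medians are -0.74 for the mevalonate genes and -0.47 for the 9 enzymes, and with the Group A compounds both medians are above 0.5.

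The lines were checked against marker lists. Of 8 neural progenitor markers in the table, 3 had a mean of at least 6, and Nes and Sox2 stood at 4.96 and 4.81 in the STHdhQ111 vehicle and at 10.95 and 8.91 in STHdhQ7. Sox9 went the other way, at 9.55 in the STHdhQ111 vehicle and 7.71 in STHdhQ7, and of the 7 progenitor markers tested 5 were higher in STHdhQ7 and 1 was lower. Of 7 striatal projection neuron markers in the table, 1 (Foxp1) had a mean of at least 6, and Drd1 was near the lowest value of the table. Of 5 mesenchymal markers 4 had a mean of at least 6, and 2 of these 4 were lower in STHdhQ7. Col1a1 stood at 14.6 in the STHdhQ111 vehicle and 14.7 in STHdhQ7, Col1a2 at 13.03 and 10.33, and Pdgfra at 9.04 and 7.71. The microglial markers Cx3cr1, P2ry12 and Aif1 were at the lowest values, while Tmem119, 1 of 5 microglial markers with a mean of at least 6, stood at 7.63. Of 3 astrocyte markers none reached a mean of 6, with Slc1a2 at 4.95, Aldh1l1 at 2.61 and Gfap at -0.95. Of 2 endothelial markers 1 did, which was Pecam1 at 8.35, and Cdh5 was at 0.22. The mean of the progenitor markers ranged from 5.86 to 7.52 over the 16 conditions, and that of the mesenchymal markers from 9.02 to 10.0. STHdhQ7 gave the 7.52 and the 9.02, and the STHdhQ111 vehicle stood at 6.03 and 9.79. The part of these markers in the differences of the 9 enzymes was not tested.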

How the data were processed

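Poly(A) RNA of 48 samples was sequenced with a directional kit as single-end reads. Per the labels and the submitters' processing notes, the authors trimmed reads with Trimmomatic 0.36, quantified them with RSEM on GRCm38.p5 and used DESeq2, with collection day modelled, for their own comparisons. The deposited values are normalized abundances on a log2 scale, from -2.34 to 18.6. The name of the transformation was not given in the sources used here, and genes with low values hardly vary, so fold changes of low genes may be understated. Sequencing depth is unknown from these values. Per sample, 2 to the power of the values summed to totals within a ratio of 1.11, and replicates correlated at 0.9964 to 0.9994 across genes.

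A linear model per gene was fitted to the log2 values with limma 3.58.1 (R 4.3.3), with condition and collection day as terms, all 48 samples, moderated variances with a trend and 30 residual degrees of freedom. Collection day was a term because the study's methods model it. The study's count model was not used, since the values are not counts. Rows with a symbol (18178 of 27281) and a mean of at least 1 were tested, two-sided, with Benjamini-Hochberg adjustment over all 13409 genes within each of the 15 vehicle comparisons, and over all genes and all 6 pairs at 10 µM together. An exact permutation test of 3 samples against 3 cannot go below p = 0.1 and was not used. On simulated data with 200 changed genes among 13409, laid out like cyproheptadine against vehicle, limma called 196 of them and 11 unchanged genes, and with none changed, laid out like haloperidol, it called 0. The planted changes were of a few fixed sizes, and the noise was drawn independently for each gene and sample. Changes smaller than those planted, and shifts shared by many genes of a sample, were not simulated.

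Gene positions are from GENCODE M21 (GRCm38) and promoters from RefSeq (GRCm38.p6). The members, lists, motifs and tests were chosen with earlier results of these data known. All 9 members were named. The rule for named genes took the 5 genes most like the members' mean (Pearson's r over 16 condition means, collection day removed, mean of at least 6) and the largest rise and fall of each other list, and a few further genes were chosen after their values were seen. Some genes that this rule names are not reported here. Alternatives covered filters, scaling, variance trend, day and time terms, samples in the fit, the control samples and leaving out each sample.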

Additional observations from a re-analysis of the deposited data

How the results depend on the processing

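None of the 98 called values among the 189 single values of the 9 enzymes changed sign under the alternatives run. Of the values not called, 31 changed sign under at least 1 of them, none of which was called there, such as Lss with cysteamine, at -0.08 against the vehicle and 0.15 against the slot-matched control. Called counts of the 9 enzymes and of the other 25 pathway genes stayed within 1.5 times of the reported count with no minimum mean, a minimum mean of 6, rescaling by the median of ratios, no variance trend and collection time as a further term. The replicate block (replicate number in place of collection day) changed the call of 0 of the 189 single values of the 9 enzymes, and the fit with no replicate block, without the day term, changed 1, Ebp with DKI, which was then called (adjusted p = 0.0456). Residuals of samples from 1 collection day correlated at -0.055 on average, and those of other days at 0.028. With slot-matched nanomolar compounds as control, meclizine gave 1 enzyme in place of 0, and trichostatin A 2 enzymes in place of 1 and 4 other genes in place of 2. When each fit held just the 2 conditions in question, cysteamine gave 2 enzymes and 2 other genes in place of 0, nicotinamide 2 enzymes in place of 0 and 5 other genes in place of 2, nortriptyline 0 other genes in place of 2, and fingolimod phosphate 1 in place of 0. The cause was not tested.

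Leaving out 1 sample at a time kept 9 enzymes called for STHdhQ7, cyproheptadine, loxapine and pizotifen and for cyproheptadine or loxapine against meclizine or DKI, and 8 for DOP. The number ranged from 7 to 9 for DKI, from 0 to 2 for meclizine (2 without its replicate 2), from 0 to 1 for trichostatin A (0 without its replicate 2, vehicle replicate 1 or vehicle replicate 2) and for cysteamine (1 without vehicle replicate 3), from 2 to 3 for sodium butyrate and from 7 to 8 for meclizine against DKI. For the other 25 genes it ranged from 1 to 9 for meclizine (1 without its replicate 1, 9 without its replicate 2), from 6 to 9 for sodium butyrate, where 10 were called with all samples, from 1 to 2 for trichostatin A and nicotinamide, from 0 to 2 for nortriptyline, and from 0 to 1 for cysteamine, selisistat and cyproheptadine against loxapine. Ebp with DKI was also called with a minimum mean of 6 (adjusted p = 0.0481) and without vehicle replicate 2 (adjusted p = 0.0203). A change of pseudocount was not run, since the values are already on a log scale. With 3 samples a condition and depth unknown, the 95% intervals given show which sizes of difference remain possible.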
